A study of Drosophila melanogaster with 6 samples.

Results

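A list of midgut serine proteases was followed through 30 genes, out of 13402 genes that had an array row annotated to 1 gene alone. The list also holds Sems, the gene of a male seminal fluid protease. The members were fixed by name: 14 Jonah genes, 9 trypsin genes and 7 other serine protease genes (Ser6, Ser8, Ser12, yip7, Sems, Phae1 and Phae2). All 30 names were found, each with exactly 1 row, so that no choice between rows was needed.

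Digestive serine proteases are secreted into the gut lumen as inactive precursors and cut the proteins of the food into peptides. Trypsins cut after the basic residues lysine and arginine, and the Jonah genes encode chymotrypsin-like enzymes. Both families arose by repeated duplication, and their genes lie in tight clusters whose copies can be very similar in sequence. Their transcripts are made chiefly by the enterocytes, the absorptive cells of the midgut, and the amounts are known to respond to diet, with dietary sugar repressing many digestive enzymes.

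RNA of whole Drosophila melanogaster larvae of the laboratory strain w1118, which carries a mutation of the eye colour gene white, was measured on 6 single-channel Affymetrix arrays. The 3 juice arrays came from larvae that ate a semi-purified diet supplied with palm fruit juice, a water-soluble and phenolic-rich product of the oil palm, through the 5 days after egg laying. The 3 control arrays came from larvae of equal age and strain whose semi-purified diet held no juice. The labels give the dose both as 19000 mg of gallic acid equivalents per kg of diet and as 0.86 mg per kcal, which are hard to reconcile, and the dose was not used. Each array held the pooled RNA of 3 to 4 larvae, and nothing in the labels says that pools came from separate cultures, so p-values measure only how these pools vary, part of which may be technical.

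Values are log2 expression values, so that a difference of 1 is a 2-fold difference, and a difference is always juice minus control. Groups were compared by limma's moderated test in 10051 genes, those left after the dimmest 25% were removed. Levels of different genes cannot be compared on these arrays, because each row has probes of its own, so each gene is set only against itself. In whole larvae a smaller share of midgut and less RNA per midgut cell cannot be told apart. A pair of arrays stood apart from the rest. Genes that departed 2-fold or more from their average elsewhere numbered 440 for juice replicate 2 and 536 for control replicate 1, against 54 to 178 for each of the remaining 4 arrays. Among the 30 proteases, Jon25Bi and betaTry did so in control replicate 1, thetaTry in control replicate 3, and none in the others. Of 13 midgut marker genes other than proteases, 10 had a row of their own, and all 10 were above the brightness filter.

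No listed protease passed limma's test of juice-fed against control larvae with Benjamini-Hochberg adjustment over all genes (0 of 26 tested members, where 0% of all genes passed). The ordinary test without limma's moderation also called 0 genes after adjustment and 399 at unadjusted p under 0.05, against 470 with moderation. At unadjusted p under 0.05, 1 of the 26 was lower in juice-fed larvae (Jon99Fii) and 0 were higher, against 4.68% of all tested genes in both directions together, 2.00% lower and 2.68% higher. The median difference over the 30 genes was 0.04, beside -0.03 over all tested genes, and the differences ran from -0.33 in Jon99Fii to 0.60 in thetaTry. The means differed at least 2-fold in 0 members, against 1.14% of all tested genes. The share of members at unadjusted p under 0.05 was close to that of all genes.

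The intervals show how large a difference these arrays could have missed. The 95% interval of the difference lay within 2-fold either way in 24 of the 26 tested members, where the share over all tested genes was 85.0%, and within 1.5-fold in 14 of them, against 48.9% of all tested genes. The exceptions to the 2-fold bound were the trypsin genes thetaTry and betaTry. For 12 members a difference of 1.5-fold in at least 1 direction is thus within the error.

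**Figure D1:**
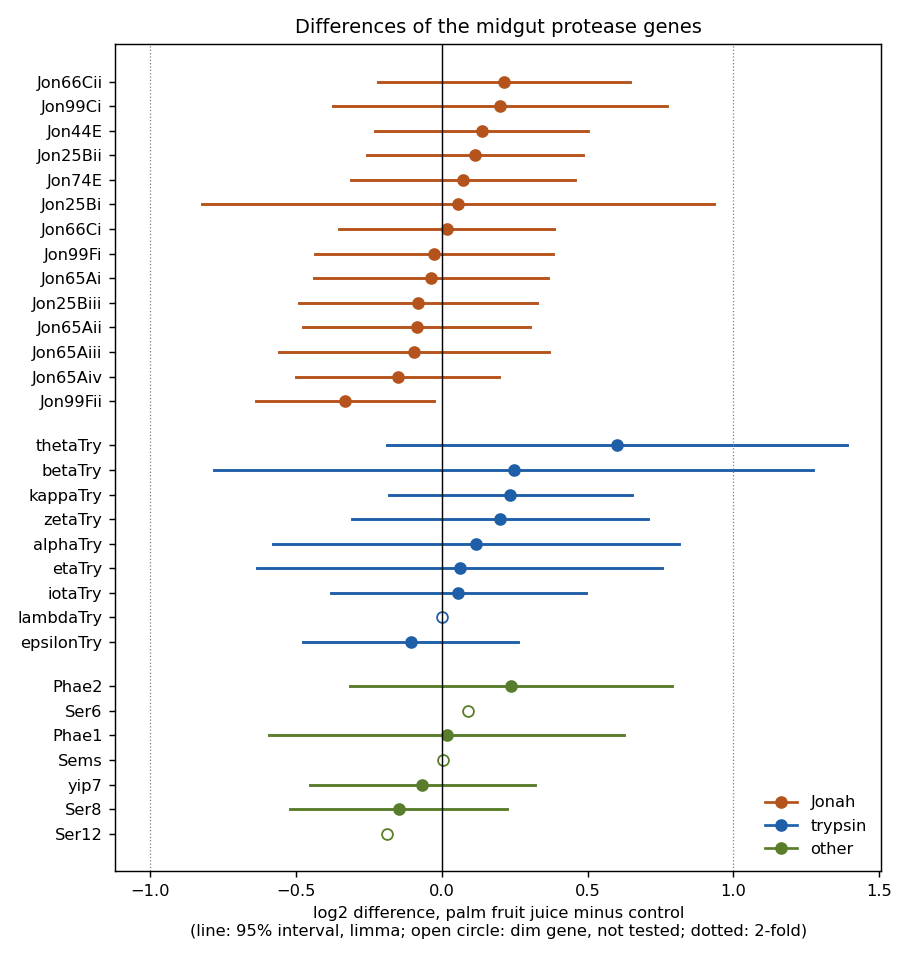
Log2 difference, palm fruit juice minus control, of the 30 protease genes (x axis), grouped as Jonah, trypsin and other genes down the page, with limma's 95% intervals as lines. Intervals cross 0 in every tested gene but Jon99Fii (-0.33), they stay inside the dotted 2-fold lines except in thetaTry and betaTry, and the 4 open circles are dim genes without a test.

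Of the 14 Jonah genes, 7 had a higher mean in juice-fed larvae and 7 a lower one, with a median difference of -0.00445. All 14 passed the brightness filter, the interval lay within 2-fold in all 14 and within 1.5-fold in 10. Several of these genes are direct neighbours. In the Jon25B run, Jon25Bii, Jon25Biii and Jon25Bi differed by 0.11, -0.08 and 0.06. In the Jon65A run, which yip7 adjoins with 1 other gene between, Jon65Ai, Jon65Aii, Jon65Aiii and Jon65Aiv differed by -0.04, -0.09, -0.09 and -0.15. The Jon25B genes thus differed in sign, while the means of the 4 Jon65A genes were all slightly lower in juice.

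Jon99Fii, a Jonah gene next to Jon99Fi, measured 3.39, 3.24 and 3.35 in the juice arrays, against 3.67, 3.73 and 3.57 in the control arrays. The juice arrays lay wholly below the control arrays, as they did in 5.08% of all tested genes. The difference was -0.33 ± 0.13 (SE; 95% interval -0.64 to -0.03), a ratio of 0.794, with limma's unadjusted p = 0.0371 and adjusted p = 0.931. The gene was near the dim end of the scale, where the filter lay at 2.63. Its neighbour Jon99Fi measured 8.28, 8.68 and 8.21 in the juice arrays and 8.53, 8.48 and 8.25 in the control arrays. There the groups overlapped and the difference was -0.03 (95% interval -0.44 to 0.38). The unadjusted p of Jon99Fii ran from 0.0420 to 0.121 with 1 array left out, and it was above 0.05 in 5 of these 6 fits. It was also above 0.05 after quantile normalization (limma's unadjusted p = 0.0768, adjusted p = 0.913). The same held once all array medians were made equal (limma's unadjusted p = 0.0834, adjusted p = 0.934) and when both arrays that stood apart were dropped (limma's unadjusted p = 0.141, adjusted p = 0.947). With the replicate block it was above 0.05 as well (limma's unadjusted p = 0.0849, adjusted p = 0.980). Limma's unadjusted p stayed under 0.05 without the brightness filter (0.0158), with a variance trend (0.0360) and with array weights (0.0358). With averaged rows it was 0.0369, but the gene has 1 row, so its own values were unchanged there. The ordinary test without moderation gave an unadjusted p of 0.00685. Adjusted p ran from 0.830 to 0.953 in the fits without the filter, with the trend, weights or averaged rows, and without moderation.

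Jon66Cii measured 8.23, 8.75 and 8.32 in the juice arrays and 8.06, 8.39 and 8.21 in the control arrays, a difference of 0.21 (95% interval -0.22 to 0.65; unadjusted p = 0.282, limma). The groups overlapped, with juice replicate 2 the highest and control replicate 1 the lowest. Its neighbour Jon66Ci differed by 0.02 (95% interval -0.35 to 0.39). Jon44E, which has no other member beside it, measured 5.87, 6.13 and 5.92 in the juice arrays and 5.63, 5.92 and 5.96 in the control arrays. Its difference was 0.14 (95% interval -0.23 to 0.50), again with overlapping groups.

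Jon65Aiv measured 10.97, 11.23 and 11.28 in the juice arrays and 11.22, 11.43 and 11.28 in the control arrays. Juice replicate 1 was the low array, and the other juice arrays lay within the control range. The difference was -0.15, and the 95% interval of -0.50 to 0.20 leaves room for a ratio between 0.707 and 1.15.

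Jon25Bi had the widest range of the Jonah genes, 1.42 over the 6 arrays. It measured 8.61, 9.19 and 9.01 in the juice arrays, against 8.01, 9.43 and 9.21 in the control arrays. Control replicate 1 was the low array and control replicate 2 the high one, so that the spread within the control group (SD 0.76, n = 3) was larger than the difference of 0.06. Without control replicate 1 the difference of Jon25Bi was -0.38 (unadjusted p = 0.129, limma), and with both outlying arrays dropped it was -0.51 (unadjusted p = 0.0479, adjusted p = 0.947, limma). Jon99Ci measured 7.90, 7.97 and 7.36 in the juice arrays and 7.14, 7.84 and 7.64 in the control arrays. Its groups overlapped, the difference was 0.20 (95% interval -0.37 to 0.77), and without control replicate 1 it was 0.0012.

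The only remaining Jonah gene, Jon74E, lay near the dim end and differed by 0.07 (95% interval -0.31 to 0.46). A further pair of Jonah genes, Jon99Cii and Jon99Ciii, shared 2 rows that could not be assigned to either gene. These rows differed by -0.06 and -0.14 and their groups overlapped.

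**Figure D2:**
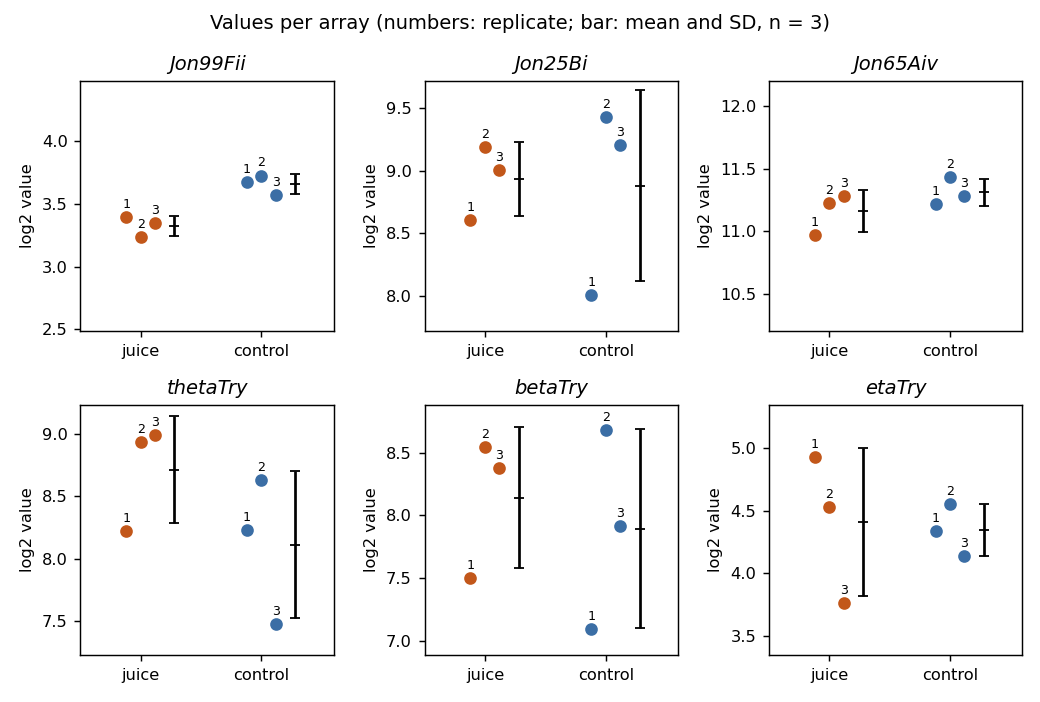
Log2 values of 6 protease genes on each array (points numbered by replicate), juice left of control, with the mean and SD of 3 arrays beside them; every panel spans the same 2 log2 units. In Jon99Fii the groups are apart by a small step, while in Jon25Bi and betaTry control replicate 1, in thetaTry control replicate 3 and in etaTry juice replicates 1 and 3 set the spread.

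The trypsin genes lay slightly higher in juice-fed larvae on balance, with 7 of 9 means higher and a median difference of 0.12, but none of the 8 tested genes had an unadjusted p under 0.05. Means were higher in juice in 44.9% of all tested genes. The spread between arrays of a group was wider in the trypsin genes, though this was not tested. The median SD within groups was 0.29 over the trypsin genes and 0.19 over the Jonah genes, beside 0.23 over all tested genes. The range over 6 arrays was above 1 in 3 of 9 trypsin genes and in 1 of 14 Jonah genes, and in 20.6% of all tested genes. Without control replicate 1 the trypsin median was -0.01, and without control replicate 2 it was 0.24.

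The gene thetaTry had the largest difference of any member. It measured 8.22, 8.93 and 8.99 in the juice arrays, against 8.23, 8.63 and 7.48 in the control arrays. Control replicate 3 was the lowest array, and juice replicate 1 lay below control replicates 1 and 2, so the groups overlapped. The difference was 0.60 ± 0.34 (SE; 95% interval -0.19 to 1.39), a 1.52-fold ratio, with limma's unadjusted p = 0.115 and adjusted p = 0.931. Without control replicate 3 the difference was 0.28 (limma's unadjusted p = 0.368). It was 0.85 without juice replicate 1 (limma's unadjusted p = 0.0485, adjusted p = 0.668) and 0.86 without control replicate 2 (limma's unadjusted p = 0.0372, adjusted p = 0.828).

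The gene betaTry had the widest range of all members, 1.59. It measured 7.50, 8.54 and 8.38 in the juice arrays and 7.09, 8.68 and 7.91 in the control arrays. In both groups replicate 1 was the low array, and control replicate 2 was the highest of all. The difference was 0.25 (95% interval -0.78 to 1.27, which is a ratio of 0.582 to 2.42). Without control replicate 1 the difference was -0.16, and without control replicate 2 it was 0.64.

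The gene etaTry measured 4.93, 4.53 and 3.76 in the juice arrays, against 4.34, 4.55 and 4.14 in the control arrays. The juice arrays enclosed the control arrays, and the difference of 0.06 was small beside the SD of 0.59 in the juice group. Next to it, zetaTry measured 5.31, 5.18 and 4.63 in the juice arrays and 4.70, 5.07 and 4.74 in the control arrays. Here too juice replicates 1 and 3 were the extremes, and the difference was 0.20 (95% interval -0.31 to 0.71).

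The gene kappaTry, listed in the gene table with a synonym of the serine protease homologue type, measured 3.12, 2.58 and 2.70 in the juice arrays and 2.50, 2.68 and 2.52 in the control arrays. The higher juice mean came from juice replicate 1, without which the difference of 0.23 became 0.07. The gene epsilonTry was steady, at 10.46, 10.80 and 10.87 in the juice arrays and 10.88, 10.83 and 10.74 in the control arrays. Its difference was -0.11 (95% interval -0.47 to 0.26), and it was 0.02 without juice replicate 1.

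The remaining trypsins alphaTry and iotaTry differed by 0.12 (95% interval -0.58 to 0.81) and 0.06 (95% interval -0.38 to 0.49). The gene lambdaTry was below the brightness filter and was not tested. Its means were 2.36 in juice and 2.36 in control larvae. The trypsins gammaTry and deltaTry and the genes CG30025 and CG30031 shared 4 rows that name all 4 genes, and 2 of these rows held identical values. These rows differed by -0.02 to 0.00452, with juice replicate 2 highest and juice replicate 1 lowest in all 4.

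A run of 8 trypsin genes lie side by side with no other protein-coding gene between them, in the order lambdaTry, kappaTry, zetaTry, etaTry, thetaTry, alphaTry, epsilonTry and betaTry (order taken from RefSeq's annotation of Release 6 plus ISO1 MT). The next 4 genes after betaTry are gammaTry, CG30031, CG30025 and deltaTry, those of the shared rows. The run was not uniform across pools. In juice replicate 1 the first 4 genes all lay above their own mean over the 6 arrays, by 0.39 on average, and the last 4 all lay below theirs, by -0.38 on average. In juice replicate 2 both averages were above 0, at 0.06 for the first 4 genes and 0.38 for the last 4, and in juice replicate 3 they were -0.26 and 0.32. In control replicate 1 they were -0.15 and -0.38, in control replicate 2 they were 0.14 and 0.29, and in control replicate 3 they were -0.17 and -0.23. The arrangement within the run was noticed after the values were seen and was not tested. The rows for neighbouring, similar genes may also share hybridising RNA, which was not tested since probe sequences were not used here.

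**Figure D3:**
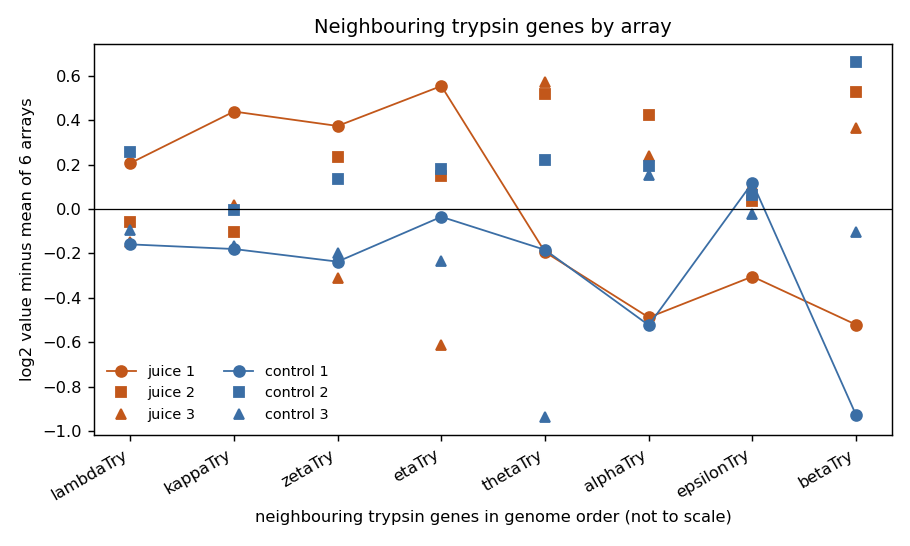
Log2 value minus the gene's mean over 6 arrays (y axis) for 8 neighbouring trypsin genes in genome order (x axis, not to scale), juice arrays in orange and control arrays in blue, with the first replicates joined by lines. Juice replicate 1 is above 0 in the first 4 genes and below 0 in the last 4, while control replicate 1 is below 0 in all but epsilonTry.

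Of the 7 other members, 4 were bright enough to test and none had an unadjusted p under 0.05. The median difference over the 7 was 0.00299. The neighbours Phae1 and Phae2 form a pair of their own. Phae2 measured 4.36, 4.88 and 4.29 in the juice arrays and 4.13, 4.66 and 4.03 in the control arrays, a difference of 0.24 (95% interval -0.31 to 0.79) with replicate 2 the highest array of each group. Phae1 measured 6.53, 7.18 and 7.14 in the juice arrays and 6.53, 7.30 and 6.96 in the control arrays, a difference of 0.02 (95% interval -0.59 to 0.62). In Phae1, replicate 1 was the low array of both groups, as in betaTry.

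The gene yip7, near the Jon65A run, measured 10.48, 10.86 and 10.91 in the juice arrays and 10.81, 10.93 and 10.71 in the control arrays. Juice replicate 1 was the low array, and the difference was -0.07 (95% interval -0.45 to 0.32). Ser8 measured 3.12, 3.38 and 3.54 in the juice arrays and 3.57, 3.55 and 3.36 in the control arrays, a difference of -0.15 (95% interval -0.52 to 0.22).

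Ser6, Ser12 and Sems, the gene of the male seminal fluid protease Seminase, were below the brightness filter on average and were not tested. Ser12 measured 1.94, 2.04 and 2.02 in the juice arrays and 2.19, 2.35 and 2.03 in the control arrays. Ser6 measured 2.63, 2.40 and 2.45 in the juice arrays and 2.31, 2.49 and 2.41 in the control arrays. Sems had means of 2.22 in juice and 2.22 in control larvae.

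Pools of the same diet differed among themselves. When each gene was centred on its own mean, the Jonah genes averaged -0.08, 0.15 and -0.06 in the juice arrays, against -0.20, 0.17 and 0.04 in the control arrays. The trypsin genes averaged 0.000691, 0.23 and 0.0059 in the juice arrays, against -0.26, 0.21 and -0.19 in the control arrays. Both families were thus highest in replicate 2 of either group and lowest in control replicate 1. Part of this was shared by other digestive genes described below. In control replicates 1 and 2, 34 further trypsin-like and chymotrypsin-like genes averaged -0.17 and 0.17, and 16 lipases -0.16 and 0.11. The former were highest among the juice arrays in replicate 1, however, and 13 zinc carboxypeptidases averaged 0.07 and 0.0025 in these 2 control arrays. Per group, the Jonah mean was 0.000118 ± 0.13 in juice and -0.000118 ± 0.19 in control larvae, and the trypsin mean was 0.08 ± 0.13 in juice and -0.08 ± 0.25 in control larvae (SD, n = 3 each).

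Single genes followed this order only in part. Of the 30 members, 10 had their highest value in juice replicate 2 and 12 in control replicate 2, where the shares over all tested genes were 27.1% and 8.49%, and the other 8 were highest elsewhere. The 33.3% of members highest in juice replicate 2 was near the share over all tested genes. The lowest value fell in control replicate 1 for 13 of the 30, a share of 43.3%, against 13.9% of all tested genes, and in control replicate 2 for 0 of the 30, against 13.5%. Another 7 members were lowest in juice replicate 1, a share of 23.3%, against 25.8% of all tested genes. These genes share their arrays and in part their tissue, so the counts are not independent.

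**Figure D4:**
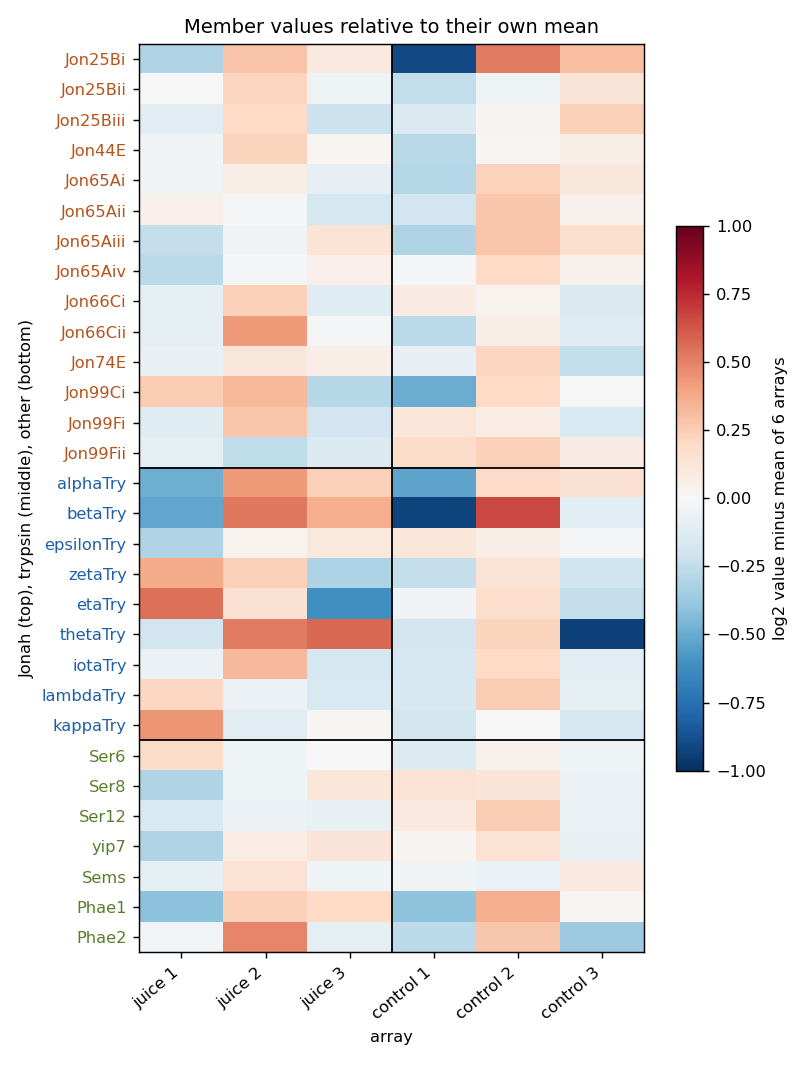
Log2 values of the 30 genes (rows) on the 6 arrays (columns), each minus the gene's own mean, red above and blue below; Jonah genes are at the top, trypsins in the middle and the other genes at the bottom, juice arrays left of the line. Juice replicate 2 and control replicate 2 are mostly red and control replicate 1 mostly blue; lambdaTry, kappaTry, zetaTry and etaTry are red in juice replicate 1.

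Set against each other, the difference of the family averages, Jonah minus trypsin, was -0.08, -0.08 and -0.07 in the juice arrays and 0.05, -0.05 and 0.23 in the control arrays. It was lower in each juice array than in any control array. With thetaTry left out the groups overlapped. The differences were then -0.11, -0.05 and 0.00134 in the juice arrays and 0.06, -0.04 and 0.13 in the control arrays. No other trypsin gene was left out in turn, so the overlap need not be particular to thetaTry. With medians in place of means the groups overlapped as well. The values were -0.03, -0.03 and -0.08 in the juice arrays and -0.04, 0.0055 and 0.17 in the control arrays. No test was made of these family scores, since the genes had been chosen with earlier results known.

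**Figure D5:**
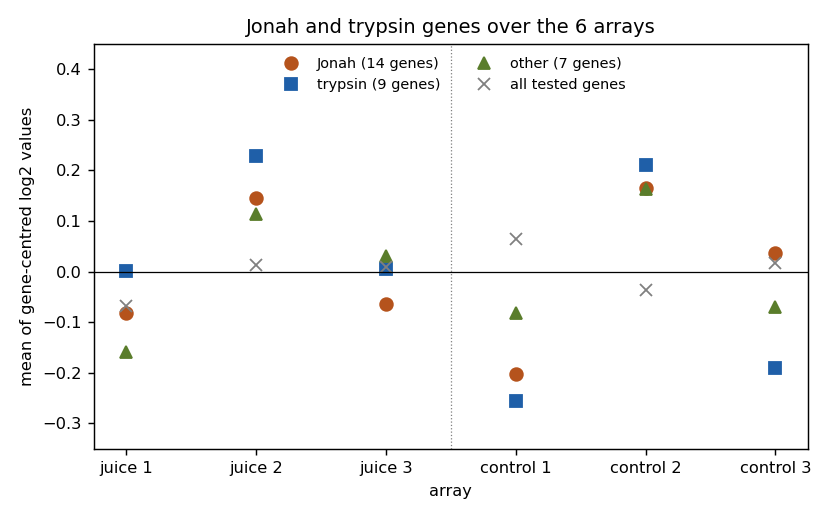
Mean of gene-centred log2 values (y axis) on each array (x axis) for 14 Jonah, 9 trypsin and 7 other protease genes and for all tested genes. The 3 protease groups lie above all tested genes in juice replicate 2 and control replicate 2 and below them in control replicate 1.

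Other digestive hydrolases were read from lists of gene names. Of 42 further trypsin-like and chymotrypsin-like genes, 34 had a row of their own and 24 were tested, with 0 at unadjusted p under 0.05 in either direction and a median difference of 0.02. Of the 3 with the smallest p, CG18179, a gene of this protease fold, measured 3.85, 4.90 and 5.83 in the juice arrays and 3.51, 4.76 and 3.12 in the control arrays. Its difference was 1.06 (95% interval -0.29 to 2.42; unadjusted p = 0.106, limma). CG11529 measured 8.39, 7.33 and 7.50 in the juice arrays and 8.27, 8.18 and 9.83 in the control arrays, a difference of -1.02 (95% interval -2.16 to 0.11; unadjusted p = 0.0710, limma). In both genes the groups overlapped. In CG33127 the juice arrays lay wholly above the control arrays, which held for 1 of the 24 tested genes of the list and for 4.96% of all tested genes, and the difference was 0.28 (95% interval -0.09 to 0.64; unadjusted p = 0.116, limma).

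The counts at unadjusted p under 0.05 were also 0 for 8 tested zinc carboxypeptidases, 7 aminopeptidases, 4 aspartic proteases and 8 lipases. Their median differences over all genes with a row were -0.01, 0.38, -0.05 and -0.02. Among the carboxypeptidases CG4408, CG3097 and CG8564 differed by -0.33, -0.20 and -0.38. Among the aspartic proteases CG17134, cathD (the lysosomal cathepsin D) and CG31926 differed by 0.83, -0.29 and -0.04, and among the lipases CG8093, CG6295 and CG6277 by 0.42, -0.45 and -0.19.

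Genes that control digestive enzymes also had 0 of 9 tested members at unadjusted p under 0.05, with a median difference of 0.05. The sugar-induced zinc finger gene sug measured 5.20, 5.03 and 4.98 in the juice arrays, against 4.94, 4.87 and 4.76 in the control arrays. The groups did not overlap, as in 4.96% of all tested genes in this direction, and the difference was 0.21 (95% interval -0.11 to 0.53; unadjusted p = 0.168, limma). The groups likewise did not overlap in bigmax, a partner of the sugar sensor Mondo, at 0.19, and in put, a receptor of activin signals, at 0.20. The activin ligand gene daw differed by -0.15, its receptor babo by -0.25, the signal transducers Smox and Med by 0.05 and -0.09, Mondo by 0.12 and GATAe, a GATA factor of the midgut, by 0.03.

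Markers of the midgut outside the protease families had 0 of 10 tested members at unadjusted p under 0.05 and a median difference of 0.07, with 7 higher and 3 lower. Their mean level per array was 4.75 to 5.37 in juice and 4.69 to 4.97 in control larvae. The 5.37 was that of juice replicate 1, where LManV (5.87) and LManVI (8.01) had their highest values. The gene-centred values of the markers in that array averaged 0.47, but their median was 0.08. Enteroendocrine markers likewise had 0 of 7, with mean levels of 4.40 to 4.50 in juice and 4.31 to 4.57 in control larvae. The midgut genes by the smallest p were dve, LManV and Ssk, with differences of 0.17, 0.79 and -0.19, and the enteroendocrine genes pros, Mip and Dh31, with -0.94, 0.35 and 0.19.

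Other organs of the larva were represented by smaller lists, in which not every gene had a row of its own. Rows were found for 4 of 7 muscle, 3 of 6 fat body, 3 of 5 Malpighian tubule, 2 of 6 cuticle and 4 of 5 neuron genes. The 4 muscle genes with a row (Mlc1, Mlc2, up and Mf) were all higher in juice at unadjusted p under 0.05, as were 2.68% of all tested genes. Each had an adjusted p of 0.931 (limma). They had a median difference of 0.61 and mean levels of 10.43 to 10.90 in juice and 9.93 to 10.34 in control larvae. All 6 salivary glue genes had lower means in juice, as had 5534 of the 10051 tested genes. Of the 6, Sgs4 alone was lower at unadjusted p under 0.05 (adjusted p = 0.931, limma), as were 2.00% of all tested genes. The 6 genes had mean levels of 9.10 to 9.43 in juice and 9.56 to 9.73 in control larvae. The 3 fat body genes had lower means as well, at 11.28 to 11.42 in juice and 11.49 to 11.64 in control larvae. Neuron and haemocyte lists had 0 members at unadjusted p under 0.05, with median differences of -0.33 and 0.03. Of the 3 Malpighian tubule genes, with a median difference of 0.17, salt differed by 1.14 (unadjusted p = 0.0022, adjusted p = 0.931, limma), Vha55 by 0.17 and Irk1 by -0.12. Of the cuticle list only Cpr47Eb was tested, at 0.62. The part of such organ shares in the protease values was not tested.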

How the data were processed

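Each of the 6 arrays held whole-larva RNA, labelled from 100 ng with the GeneChip WT PLUS kit, per the labels' protocols. The authors deposited 1 log2 value per row and array; the tools named are Affymetrix Expression Console 1.4.0.38 and RMA, per the submitters' processing notes. The values, from 1.44 to 12.97, bear out the log2 scale. RMA as generally defined aligns the distributions of all arrays, so that a shift of most transcripts would largely be removed. The probes' genome build and any filter: not given in the sources used here.

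Of 16322 rows, 13441 name 1 gene, 555 several and 2326 none. The brightest row per gene was kept (13402 genes), and genes with a mean below 2.63, the dimmest 25%, were left out. The group comparison used limma 3.58.1 (lmFit, eBayes; R 4.3.3), two-sided, with no covariate and Benjamini-Hochberg adjustment over 10051 genes. The procedure was tested on simulated data. An exact permutation test of 3 arrays against 3 cannot go below p = 0.1 and was not used. The number of arrays limits the precision.

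The members and lists were chosen with earlier results of these data known. Values of all arrays are given, within the Jonah, trypsin and other members, for the 4 genes with the smallest unadjusted p and the 2 of the rest with the widest range, and up to 3 genes by p are named in each further list; Jon99Fi, the regulators and marker genes beyond the first 3, the runs of neighbours and the genes highest in 1 juice pool were added after values were seen. Lists are described by counts and medians only. All 30 members matched a gene of the same symbol in a RefSeq table of the assembly Release 6 plus ISO1 MT, used for names and gene order. The alternatives were each array left out, a block for the replicate number, no filter or a filter of 50%, quantile normalization, equal medians, averaged rows, a variance trend, no moderation and array weights. A fit that drops juice replicate 2 and control replicate 1 at once was chosen after seeing the data.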

Additional observations from a re-analysis of the deposited data

How the results depend on the processing

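With 1 array left out, limma called 0 to 4 genes at adjusted p under 0.05 and 181 (without control replicate 3) to 750 (without juice replicate 1) at unadjusted p under 0.05. The 4 genes, called without juice replicate 3, included none of the 30 proteases. The number of proteases at unadjusted p under 0.05 ran from 0 to 2, and it was 0 with the replicate block, with the dimmer 50% of genes left out (Jon99Fii is then not tested), with quantile normalization and when array medians were made equal. The median difference of Jonah minus trypsin genes ran from -0.19 to -0.0259 with 1 array left out. The differences ran from -0.38 to 0.33 in Jon25Bi, -0.16 to 0.64 in betaTry, -0.20 to 0.38 in etaTry, -0.19 to 0.0186 in epsilonTry, -0.15 to 0.0676 in yip7 and -0.18 to 0.23 in Phae1. Array weights turned the sign in Jon25Bi (-0.0942), Jon99Ci (-0.0130), etaTry (-0.16) and Phae1 (-0.0098). Without control replicate 1 and juice replicate 2 together it turned in Jon66Cii (-0.0237), Jon44E (-0.0451), Jon25Bi (-0.51), Jon99Ci (-0.11), betaTry (-0.36), etaTry (-0.0002995), Phae2 (-0.0185) and Phae1 (-0.30). The median of the 7 other members was then -0.12, and that of the Jonah and trypsin genes -0.17 and -0.05. The cause was not tested.

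Over all tested genes the replicate numbers showed no pairing of the arrays. Deviations from the group means correlated at -0.11, -0.07 and -0.08 between same-numbered arrays, and at up to 0.18 between others. The Jonah and trypsin averages were both highest in replicate 2 of either group, and a link to the replicate number in these genes alone was not tested. With the replicate block 484 genes had an unadjusted p under 0.05, against 470 without it, and 0 passed the adjustment in both. Over all alternatives the 16 tested genes chosen by the rule for full values kept their sign in 231 fits and turned it in 22. Many of the 231 could not have turned it. The replicate block, the changed filters, averaged rows, the variance trend and the test without moderation leave each of these differences as it was. None of the 16 passed the adjusted threshold in any fit. Dim genes are limited by signal over background, which the deposited values do not give.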

Other observations

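Aminopeptidases, exopeptidases that trim the peptides left by trypsins and Jonah enzymes, stood out in 1 pool. Of 8 genes with a row, 5 had their highest value in palm fruit juice replicate 1, a share of 62.5% against 9.82% of all tested genes. CG31233, an aminopeptidase gene, measured 8.49, 4.48 and 4.15 in the juice arrays, against 5.10, 6.46 and 4.62 in the control arrays. CG31343 measured 7.19, 4.05 and 4.47 in the juice arrays and 4.89, 4.81 and 4.31 in the control arrays. CG31198 measured 7.81, 6.36 and 6.39 in the juice arrays and 6.09, 6.53 and 6.26 in the control arrays. Juice replicate 1 was the high array in all 3, and the other juice arrays lay below or within the control range. SP1029, also an aminopeptidase, did not follow: it measured 6.15, 4.73 and 5.69 in the juice arrays and 6.14, 6.14 and 7.52 in the control arrays, a difference of -1.08 (95% interval -2.20 to 0.04; unadjusted p = 0.0574, limma). CG31445 differed by -0.25.

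The mannosidase genes LManV and LManVI had the same high array. LManV measured 5.87, 3.13 and 3.08 in the juice arrays and 2.95, 3.94 and 2.83 in the control arrays. LManVI measured 8.01, 5.47 and 4.85 in the juice arrays and 5.47, 6.21 and 4.31 in the control arrays. Of the further trypsin-like genes, 13 of 34 were highest in juice replicate 1, a share of 38.2% against 9.82% of all tested genes. Among them was CG17475, at 4.41, 3.22 and 3.35 in the juice arrays and 2.85, 3.92 and 3.07 in the control arrays. In the same pool the Jonah genes had 0 of 14 highest values, which in so few genes is near the share over all tested genes. Of the 9 trypsins, 3 were highest there (33.3%), namely etaTry, zetaTry and kappaTry. The last of these averaged 2.68, near the brightness filter at 2.63. These genes were named after their values were seen, 1 pool is no replicated group, and the standing of that pool was not tested.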
